A study of Solanum lycopersicum with 3 samples.

Results

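The loci of nitrogen assimilation described here are 6 of the 21717 loci measured in tomato (Solanum lycopersicum) leaf primordia. They are the asparagine synthetase Solyc06g007180, the glutamine synthetases Solyc01g080280 (plastid), Solyc04g014510 and Solyc11g011380, the nitrate reductase Solyc11g013810 and the nitrite reductase Solyc10g050890. All 6 loci chosen were in the table. They were chosen by identifier and function, and the asparagine synthetase also because its values differed strongly between libraries, so its difference between libraries is given as a description without a test. The enzyme names are those under which the loci were chosen. The gene table of assembly SLM_r2.1 used here pairs 0 of the 6 identifiers with a name, so the names were not checked.

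The samples form 1 group of 3 replicate libraries. All carry the genotype slmp, from plants of the line slmp-1, in which the tomato counterpart of the auxin response factor MONOPTEROS is affected, and all were mock-treated with a single spray of water 1 h before harvest. Each library pooled 15 primordia of leaf 5 at stage P5 (P counts leaves from the youngest primordium), and the plants had days of 18 h light and 6 h dark. No wild type or hormone-treated group is analysed here, so the values describe the mutant primordium and the differences among its libraries, and no comparison between conditions was possible. The labels give neither the plants' age nor whether pools share plants, so the spread between libraries may be in part technical. The mutated gene and leaf markers, which would need loci paired with names, were not analysed here.

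Plants take up nitrogen largely as nitrate. Nitrate reductase in the cytosol makes nitrite, nitrite reductase in the plastid makes ammonium, and glutamine synthetase joins the ammonium to glutamate to give glutamine. The plastid form of glutamine synthetase serves assimilation in green leaf cells and recaptures ammonium from photorespiration, while cytosolic forms are known for transport and remobilisation of nitrogen. Asparagine synthetase moves the amide group of glutamine to aspartate, and asparagine serves as a nitrogen-rich compound for transport and storage. In Arabidopsis, an asparagine synthetase gene is known for induction in darkness and for repression by sugar.

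Libraries were read at the 3′ ends of transcripts, so that a transcript gives about 1 fragment whatever its length. The values are scaled values, read numbers divided by 1 factor per library, and are compared between loci on that per-transcript scale without division by length. Reads without a locus, of low alignment quality or ambiguous were left out. Whether that loss differed between loci was not tested, so levels, shares and ratios between loci hold only to that extent. Each column moves in steps of 0.948, 1.04 and 1.08 scaled units in replicates 1, 2 and 3, and the loci together hold 2746410, 2574146 and 2499843 steps. A step is taken as 1 read. No value of 1 step occurs, for a reason not known here, so that reading is an assumption on which every counting interval rests. In brackets after a value stands its exact 95% Poisson interval, which covers counting error only. In bulk tissue, fewer cells of a type and less RNA per cell cannot be told apart.

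Asparagine synthetase ranged over more than an order of magnitude among libraries of the same label. Solyc06g007180, on chromosome 6 by its identifier, had a scaled value of 482.4 [441.4 to 526.2] in replicate 1, 112.2 [92.0 to 135.4] in replicate 2 and 3925 [3799 to 4055] in replicate 3. Replicate 3 was highest and replicate 2 lowest. The values rest on 509, 108 and 3643 steps, and the locus was chosen for this difference. The locus held rank 905 of all loci in replicate 1, rank 4326 in replicate 2 and rank 54 in replicate 3. It is thus among the most abundant transcripts of one library and a moderately expressed one in another.

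Its mean of 1507 ± 2103 (SD, n = 3) describes none of the libraries, since the SD exceeds the mean, and without replicate 3 the mean was 297.3. Replicate 3 was 8.14-fold above replicate 1 (95% counting interval 7.41 to 8.94), and replicate 1 was 4.30-fold above replicate 2 (3.49 to 5.34). The highest library over the lowest gave 34.7-fold on the scale of value + 1, which is used for the fold between libraries from here on. Between the remaining libraries it was 8.12-fold without replicate 2 and 4.27-fold without replicate 3. The SD of log2(value + 1) was 2.57, and without replicate 3 it was 1.48.

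**Figure D1:**
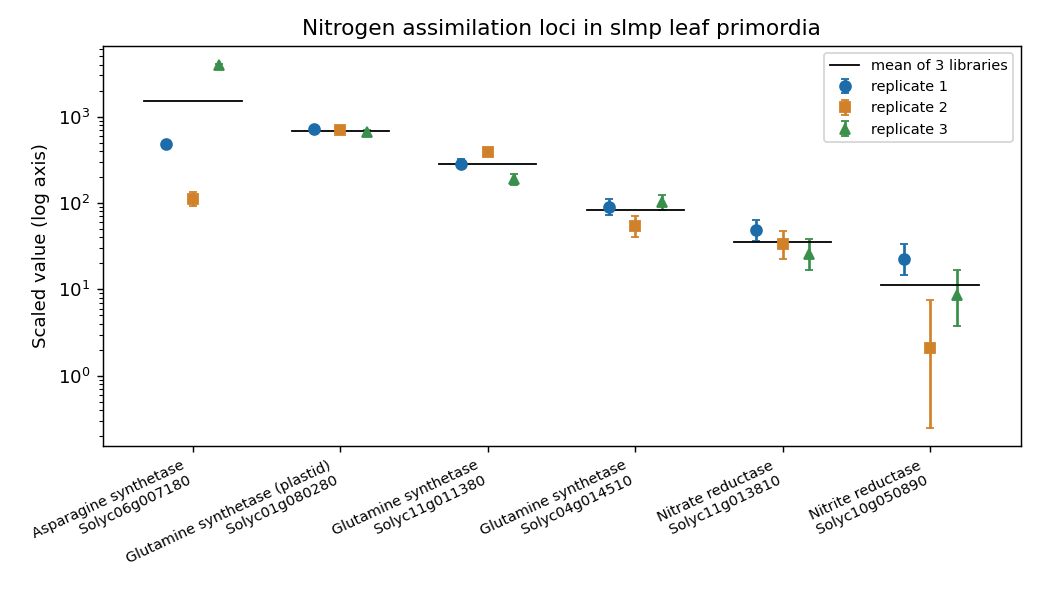
Scaled value of each of the 6 loci (log axis) in replicates 1, 2 and 3, with exact 95% Poisson intervals of counting error as bars and the mean of the 3 libraries as a line. Asparagine synthetase spans 112.2 to 3925, while the plastid glutamine synthetase stays between 655.1 and 715.6.

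Of 13579 loci whose mean was at least 20, the highest library was over 2-fold above the lowest at 1979 loci, or 14.6%. Of the 6 nitrogen loci, 5 passed the minimum mean and 2 of these 5 were over 2-fold, the asparagine synthetase and the glutamine synthetase Solyc11g011380. Since spread entered the choice of loci, nothing is read from that share. The count was 1 without replicate 2 and 1 without replicate 3. With the nitrite reductase, which lay below the minimum mean, 3 of the 6 were over 2-fold, and 29.4% of all loci were.

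Only 26 of the 13579 loci, or 0.191%, were over 10-fold, and Solyc06g007180 had rank 3 by fold. The locus was chosen for its difference between libraries, so a high rank was built into the choice and is given as a description. The median fold was 1.43. Among the 423 loci whose mean was at least 1000, Solyc06g007180 had the highest fold, and the next highest was 9.11. The median fold of these abundant loci was 1.35. Solyc06g007180 reached that mean only through replicate 3, the library that also makes its fold. Without replicate 3 its mean was 297.3, so nothing is read from its place among the abundant loci.

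**Figure D2:**
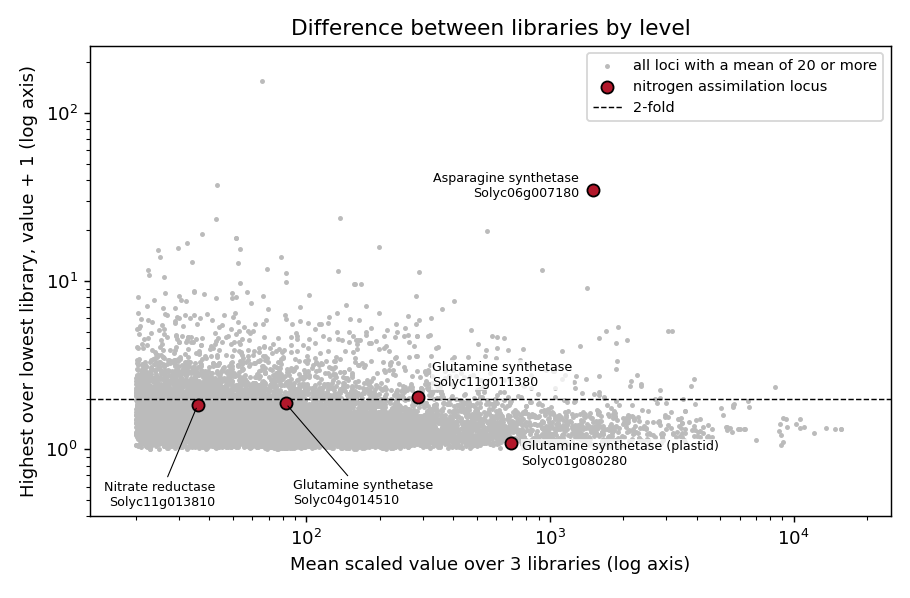
Highest over lowest library on the scale of value + 1 (log axis) against the mean scaled value (log axis) for the 13579 loci whose mean was at least 20, with 5 of the nitrogen assimilation loci marked. Asparagine synthetase, chosen for its difference between libraries, lies at a fold of 34.7 with a mean carried by replicate 3. The plastid glutamine synthetase lies near the lower edge (1.09). Nitrite reductase is below the minimum mean and is not drawn.

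Few loci shared the profile of the asparagine synthetase over the libraries. The order of replicate 3 above 1 above 2 was found at 2830 of the 13579 loci, or 20.8%. A step of over 4-fold from replicate 1 to 3 together with one of over 2-fold from replicate 2 to 1 was found at 5 loci, Solyc06g007180 included. These are plain ratios of scaled values, without the added 1. Both thresholds lie below the steps of Solyc06g007180 itself, 8.14-fold and 4.30-fold, and the count depends on them. Likeness was measured as the Euclidean distance between log2(value + 1) profiles centred on each locus's mean, over the 3 libraries. With 3 points a profile holds little information, and near loci are given as a description.

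The nearest profile belonged to Solyc02g079240, at a distance of 0.08. Its scaled values were 12.3, 2.08 and 114.2 in replicates 1, 2 and 3, of which the value in replicate 2 is 2 steps. The small distance therefore rests on those 2 steps and on the added 1, and it was not recomputed with other pseudocounts. In replicates 1 and 2 this locus lay below the minimum mean, which it passed only through replicate 3, where the asparagine synthetase was also highest. A locus this low can pass that filter only if 1 library is high, so nothing is read from its closeness. Solyc06g066420 followed at a distance of 0.83, with 25.6, 7.27 and 127.1. Both loci were low in replicate 2 and high in replicate 3, at far lower levels than the asparagine synthetase. The mean of each was carried mostly by replicate 3. In all, 3 loci lay within a distance of 1 and 44 within 2.

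Mirror-image profiles were less close. The nearest to the negative of the profile was Solyc06g036290, at a distance of 1.64, with scaled values of 95.7, 164.1 and 22.6 in replicates 1, 2 and 3. Solyc12g088170 had a distance of 1.75, with 241.7, 469.4 and 74.3. These were highest in replicate 2 and lowest in replicate 3. None of these 4 loci is paired with a name in the sources used here.

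Glutamine synthetase supplies the glutamine that asparagine synthetase consumes. None of its 3 loci ranged as widely over the libraries as the asparagine synthetase, which was chosen for its range. Only Solyc04g014510 had the same library order. The plastid form Solyc01g080280, on chromosome 1, had scaled values of 715.6 [665.4 to 768.5], 700.0 [648.2 to 754.9] and 655.1 [604.1 to 709.3] in replicates 1, 2 and 3. All 3 intervals overlapped. The mean was 690.2 ± 31.4 (SD, n = 3), higher than 97.2% of all loci, and the fold between libraries was 1.09. Replicate 1 over replicate 3 was 1.09 with a counting interval of 0.980 to 1.22, so a difference was not detectable at this depth. The SD of log2 values was 0.07, against a median of 0.27 over loci whose mean was at least 20, and without replicate 3 it was 0.02.

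The glutamine synthetase Solyc11g011380, on chromosome 11, had scaled values of 285.3 [254.0 to 319.4], 386.4 [348.1 to 427.7] and 187.5 [160.7 to 217.5] in replicates 1, 2 and 3. The intervals did not overlap, and the library order was the reverse of that of the asparagine synthetase: replicate 2 was highest and replicate 3 lowest. Its mean was 286.4 ± 99.4 (SD, n = 3), and the fold between libraries was 2.06, just past 2-fold. The SD of log2 values was 0.52, and without replicate 3 it was 0.31.

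The next locus by identifier, Solyc11g011390, had values close to those of Solyc11g011380, at 308.0, 406.1 and 215.5 in replicates 1, 2 and 3. It was higher by 24, 19 and 26 steps, which is 7.97%, 5.11% and 14.9%. Likeness of this kind was found at 334 of 7041 neighbouring pairs with at least 20 steps in each library (4.74%), counting pairs that differed by at most 20% in every library. Whether both loci count reads of the same transcripts was not tested, and the value of Solyc11g011380 is uncertain to that extent. No other of the 6 loci had an identifier neighbour that close.

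The glutamine synthetase Solyc04g014510, on chromosome 4, was lower, with scaled values of 90.0 [72.8 to 110.1], 54.0 [40.3 to 70.8] and 102.4 [82.8 to 125.1] in replicates 1, 2 and 3. Replicate 2 lay below the others, whose intervals overlapped each other. The fold between libraries was 1.88. Its libraries had the same order as those of the asparagine synthetase, at a far smaller range. The mean was 82.1 ± 25.1 (SD, n = 3) and the SD of log2 values 0.48, which was 0.13 without replicate 2.

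The plastid form made up most of the summed signal of the 3 glutamine synthetase loci in each library. Its share of the 3 loci was 65.6% in replicate 1 (exact Clopper-Pearson 95% interval 62.8 to 68.3), 61.4% in replicate 2 (58.4 to 64.3) and 69.3% in replicate 3 (66.2 to 72.4). The mean share was 65.4% ± 3.97 (SD, n = 3). The share of Solyc11g011380 was 26.2%, 33.9% and 19.8% in replicates 1, 2 and 3, and that of Solyc04g014510 was 8.25%, 4.74% and 10.8%. The order of the 3 loci was thus the same in every library, and the shares of the lesser forms had opposite orders over the libraries.

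**Figure D3:**
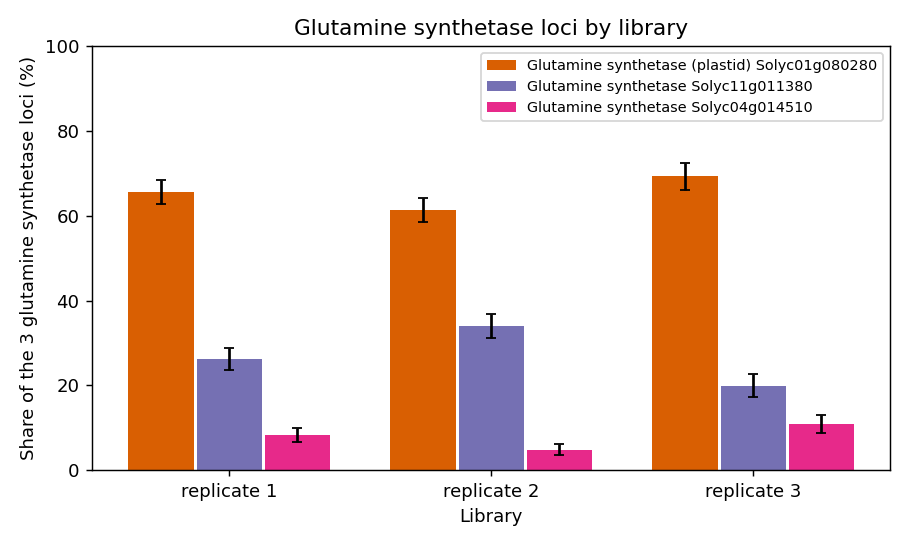
Share of each glutamine synthetase locus in the summed scaled value of the 3 loci (%), in replicates 1, 2 and 3, with exact Clopper-Pearson 95% intervals of counting error as bars. The plastid form holds 61.4% to 69.3% in every library.

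Summed over the 3 loci, glutamine synthetase had scaled values of 1091, 1140 and 945.0 in replicates 1, 2 and 3, with a mean of 1059 ± 101.6 (SD, n = 3). The asparagine synthetase therefore moved against a nearly level sum. Its ratio to that sum was 0.442 in replicate 1 (counting interval 0.398 to 0.491), 0.0984 in replicate 2 (0.0800 to 0.120) and 4.15 in replicate 3 (3.86 to 4.48). In replicate 3 the asparagine synthetase exceeded the 3 glutamine synthetase loci together, and in replicates 1 and 2 it lay below. Whether the table holds further glutamine synthetase loci was not tested.

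The enzymes of nitrate reduction had the lowest levels of the 6 loci. Nitrate reductase, Solyc11g013810 on chromosome 11, had scaled values of 48.3 [36.0 to 63.6], 33.2 [22.7 to 46.9] and 25.9 [16.6 to 38.5] in replicates 1, 2 and 3. The intervals overlapped between every pair of libraries, although the ratio of replicate 1 to replicate 3 was 1.87 with a counting interval of 1.13 to 3.18. The mean of 35.8 ± 11.5 (SD, n = 3) was close to the median locus of the table, at 33.3. The fold between libraries was 1.84. The SD of log2 values was 0.44, and without replicate 1 it was 0.25.

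Nitrite reductase, which removes the toxic product of nitrate reductase, had the lowest level of the 6 loci in every library, and in replicate 2 it was at the limit of counting. Solyc10g050890, on chromosome 10, had scaled values of 22.7 [14.6 to 33.8], 2.08 [0.252 to 7.50] and 8.62 [3.72 to 17.0] in replicates 1, 2 and 3, which are 24, 2 and 8 steps. Replicate 1 stood above replicate 2 without overlap of the intervals, and replicate 3 overlapped both. The ratio of replicate 1 to replicate 2 was 11.0 with a counting interval of 2.72 to 95.6, so its size is poorly known. It was the only one of the 6 loci that did not reach 10 scaled units in every library, a level that 68.7% of all loci reached. The mean was 11.1 ± 10.6 (SD, n = 3), and 5.35 without replicate 1. The SD of log2 values of 1.48 was 0.92 without replicate 2.

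Nitrite reductase lay below nitrate reductase in all 3 libraries. The ratio of the former to the latter was 0.471 in replicate 1 (counting interval 0.277 to 0.779), 0.0625 in replicate 2 (0.00726 to 0.245) and 0.333 in replicate 3 (0.129 to 0.767). Both reductases were highest in replicate 1, where the asparagine synthetase had its middle value. Their lowest libraries differed, being replicate 3 for nitrate reductase and replicate 2 for nitrite reductase.

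**Figure D4:**
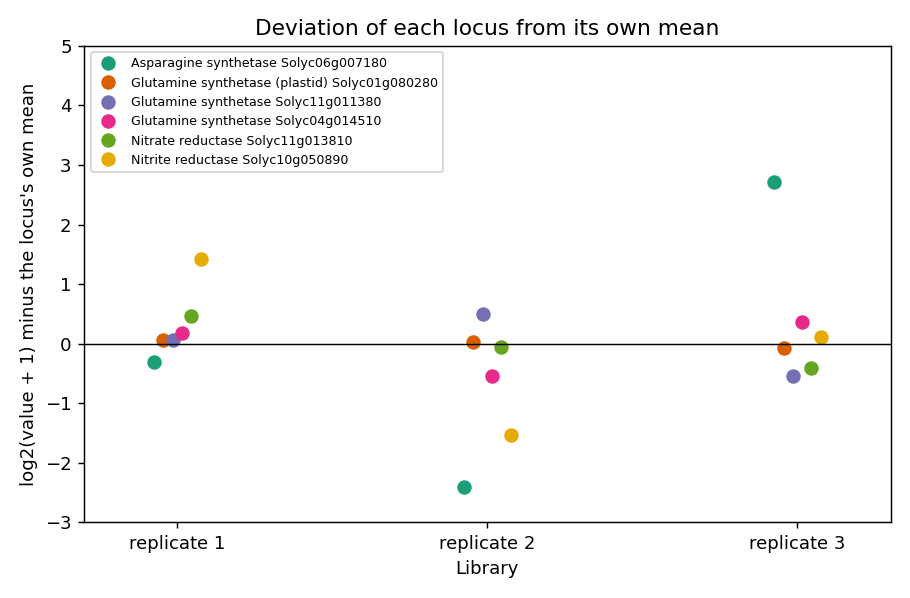
Deviation of each locus from its own mean of log2(value + 1), in replicates 1, 2 and 3. Asparagine synthetase lies at -0.31, -2.40 and 2.71, nitrite reductase at 1.42, -1.53 and 0.11, and each of the other 4 loci stays between -0.55 and 0.49.

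By mean level the order was asparagine synthetase, plastid glutamine synthetase, Solyc11g011380, Solyc04g014510, nitrate reductase and nitrite reductase. From the plastid glutamine synthetase downward, each locus lay above the next in all 3 libraries, and the ranges of neighbours in the order did not overlap. Only the place of the asparagine synthetase depended on the library: its rank among the 6 loci was 2 in replicate 1, 3 in replicate 2 and 1 in replicate 3. It made up 29.3%, 8.71% and 80.0% of the summed value of the 6 loci in replicates 1, 2 and 3. The other loci together had 1162, 1176 and 979.4.

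The libraries differed from each other over the whole table as well, and not in one direction. Among loci whose mean was at least 20, the lowest value fell in replicate 1 at 29.3%, in replicate 2 at 33.2% and in replicate 3 at 37.5%. Of the 6 nitrogen loci, 3 had their lowest value in replicate 2 and 3 in replicate 3. Size factors recomputed as medians of ratios were 1.010, 1.005 and 1.004, and rescaling by them left the fold of the asparagine synthetase at 34.7. Of the nitrogen loci, 3 had their highest value in replicate 1, 1 in replicate 2 and 2 in replicate 3. For loci whose mean was at least 20 these shares were 26.5%, 36.7% and 36.8%. The counts of the nitrogen loci, lowest and highest, include the nitrite reductase, which lay below that minimum mean. What the pools differed in was not tested.

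Other loci of nitrogen uptake and assimilation were taken from a list of 16 identifiers written from general knowledge of tomato, which no source used here pairs with names. Of these, 10 were in the table and 6 were absent from it. The 10 loci had a median level of 39.7, against 33.3 for all loci, with means from 0 to 647.0. One was listed at 0 in every library, and 7 had a mean of at least 20. Of those 7, 3 were over 2-fold between libraries and 4 were not, against 14.6% over 2-fold among all such loci. Since the list was written with earlier results of these data known, nothing is read from that share or from the folds below. The count of 3 was 1 without replicate 1, 2 without replicate 2 and 1 without replicate 3.

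The widest of these 7 loci had a fold of 3.92, against 34.7 at the asparagine synthetase. Its fold was 1.23 without replicate 1, and the highest fold of the 7 was then 2.20. The median fold was 1.65, against 1.43 for all loci with that minimum mean. The highest value was in replicate 1 at 4 of the 7, in replicate 2 at 2 and in replicate 3 at 1. The order of replicate 3 above 1 above 2, as at the asparagine synthetase, was found at 1 of the 7. That locus was the most abundant of the list and had scaled values of 632.2, 409.2 and 899.7 in replicates 1, 2 and 3.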

How the data were processed

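Leaf primordia RNA of 3 slmp libraries was read with a QuantSeq 3′ end kit, per the labels' protocols. Bowtie2, HTSeq and DESeq2 were used, per the submitters' processing notes; versions, genome build, annotation and strand setting were not given in the sources used here. Deposited by the authors were scaled signal values per locus. Every value was a whole multiple of 1 step per library, within 0.001 of a step. The smallest value above 0 was 2 steps, so no count model was fitted across libraries. Only the Poisson, Clopper-Pearson and ratio intervals treat steps as counts. Reads without a locus (21.2% to 22.7% of the scaled total listed), of low alignment quality (21.4% to 25.6%) and ambiguous reads (2.43% to 2.72%) were left out.

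From these values, means, SDs, folds and shares were computed. A pseudocount of 1 was used on the log2 scale, and folds over all loci were counted at a mean of 20 or more. Intervals take steps as reads and cover counting error only; without molecular identifiers, reads can be copies of 1 molecule. With 1 group no test was made. The 6 loci, and the list of 16 others, were chosen with earlier results of these data known. Besides the 6 loci, the 2 loci most like the asparagine synthetase and the 2 most opposite were named by rule. Alternatives were other scalings, pseudocounts, filters and leaving out each library. Python 3.11.15, numpy 2.4.6, pandas 2.3.3, SciPy 1.17.1 and matplotlib 3.10.9 were used.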

Additional observations from a re-analysis of the deposited data

How the results depend on the processing

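Levels and spreads of the 6 loci, the fold of the asparagine synthetase, the counts over 2-fold, the plastid share, the order by level and the ratio of the reductases were recomputed 120 times under other settings, and 103 values stayed within the spread of the libraries, the counting interval or 1.5 times. For the level of the asparagine synthetase this bound is wide, since its SD exceeds its mean. Its level of 297.3 without replicate 3 and its median of 482.4 thus count as staying, against a mean of 1507. Equal library totals, median-of-ratios scaling and pseudocounts of 0.25 and 5 moved none beyond these bounds. Scaling cannot change the plastid share or the ratio of the reductases, which are taken within a library, so these add nothing to that result. The level of the asparagine synthetase entered both as a main result and among the levels of single loci. Leaving out each replicate gave 4.27 to 34.7 for the highest over lowest library of the asparagine synthetase, 1 to 2 nitrogen loci over 2-fold, and 636 to 1444 loci over 2-fold in the table, against 1979 with all libraries; fewer libraries give smaller folds by construction. It left 3 to 6 of the 6 loci at their place in the order by level, the 3 being without replicate 3. It also moved 6 spreads of single loci, given beside their values. The table held 6386 loci over 2-fold with no filter on low values and 485 with a mean of 100 or more, where more or fewer loci enter. Alternatives chosen after seeing the data were a 10-fold threshold, passed by 26 loci, and the plastid share of glutamine synthetase without Solyc11g011380, which was 89.4% as fewer loci enter the sum. Leaving out replicates for the list of other nitrogen loci was also added then. No paired analysis was possible because there is only 1 group. Depth limits the low loci: a value of 3 steps is 2.84 in replicate 1, 3.12 in replicate 2 and 3.23 in replicate 3, and the nitrite reductase lay below that in replicate 2.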
